A study of Homo sapiens with 16 samples.

Results

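Stress-induced downstream-of-gene (DoG) transcripts that were already detectable in RNA from the aqueous phase are described here. They were selected on the region lists, as the DoGs of genes that were listed in both conventional libraries or in both SERIPH 1st-step libraries of the DoG-inducing condition, in none of the 8 control libraries, and with an FPKM value (fragments per kilobase of region and per unit of sequenced reads). The rule was met by 203 of the 3139 DoGs with FPKM, or 6.47%. HEK293 cells, an established line derived from human embryonic kidney, were either left in medium changed without additives (control) or exposed for 9 h to sorbitol at 200 mM, an osmotic stressor, and the translation inhibitor cycloheximide at 100 μg/mL (DoG-inducing). In each condition, 4 kinds of RNA were made: conventional AGPC RNA from the aqueous phase, hiAGPC RNA, for which the extraction is heated, and the SERIPH fractions, of which the 1st step holds the aqueous phase and the 2nd step what is released from the interphase. Each of these 8 groups had 2 biological replicates, giving 16 stranded, rRNA-depleted libraries. Conventional and hiAGPC RNA were taken from the same cell samples, and the SERIPH 1st and 2nd steps came from the same lysate. Every group came from this 1 cell line, and both agents were given together, so sorbitol and cycloheximide cannot be told apart. Gene-level expression was not analysed here, and the cell line was therefore not checked against marker genes.

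In unstressed cells, cleavage at the polyadenylation signal is followed by release of RNA polymerase II downstream from the gene. Osmotic stress is known to weaken this coupling, so that polymerases continue past the gene end and make long, chromatin-retained readthrough RNA. Such RNA is often semi-extractable, meaning that it partly stays in the interphase during acid phenol extraction and is released by heating or shearing. In these bulk samples, fewer cells making a DoG and less of it per cell cannot be told apart.

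The gene ends past which these transcripts continued are shown for 7 of the DoGs described below, each with the last 30 bases of the gene and the first 60 bases of the DoG region, read 5′ to 3′ on the strand of the gene from GRCh38. Capitals mark the polyadenylation hexamer (AATAAA or ATTAAA) or, in the replication-dependent histone H4 genes, the stem-loop that directs histone mRNA 3′ end formation. The windows are chr6:26188650-26188739 (minus strand) for H4C4, chr6:26204992-26205081 (plus) for H4C5, chr17:75776374-75776463 (minus) for H3-3B, chr9:89363604-89363693 (plus) for SECISBP2, chr16:2088648-2088737 (minus) for PKD1, chr16:14669208-14669297 (plus) for BFAR and chr5:172766932-172767021 (minus) for DUSP1. H4C4 and H4C5 were chosen to show a gene end without a hexamer, H3-3B and BFAR because their DoGs differed between the SERIPH 2nd step and hiAGPC in opposite directions, SECISBP2 and PKD1 for their high FPKM, and DUSP1 because its DoG was listed in aqueous RNA only.
H4C4: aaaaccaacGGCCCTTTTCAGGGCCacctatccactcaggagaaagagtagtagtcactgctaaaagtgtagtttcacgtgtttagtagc
H4C5: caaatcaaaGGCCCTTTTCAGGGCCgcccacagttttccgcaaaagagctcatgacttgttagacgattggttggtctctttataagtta
H3-3B: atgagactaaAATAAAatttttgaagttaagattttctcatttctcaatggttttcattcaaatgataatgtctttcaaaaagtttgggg
SECISBP2: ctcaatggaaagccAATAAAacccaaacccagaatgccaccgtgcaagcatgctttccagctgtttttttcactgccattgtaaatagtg
PKD1: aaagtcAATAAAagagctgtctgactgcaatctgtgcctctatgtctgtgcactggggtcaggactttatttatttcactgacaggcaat
BFAR: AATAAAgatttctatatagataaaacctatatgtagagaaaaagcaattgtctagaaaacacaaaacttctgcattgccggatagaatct
DUSP1: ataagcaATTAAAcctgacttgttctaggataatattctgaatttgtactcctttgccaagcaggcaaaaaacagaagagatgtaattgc
The hexamers and the stem-loop were searched on the strand of the gene in its last 50 bases, and TGTGT in the first 50 bases of the DoG region. AATAAA was found at 103 of the 203 gene ends (50.7%), against 52.1% of the 3135 DoGs with a listed region and 52.2% of the 1580 other stress-induced DoGs, which were listed in both replicates of hiAGPC or of the SERIPH 2nd-step fraction and in no control library. Either hexamer was found at 61.6% of the gene ends, against 65.7% of all DoGs. TGTGT followed the gene end of 14.8%, against 16.2% of all DoGs. The histone stem-loop was found at 5 gene ends (2.46%), those of H2BC8, H2BC9, H2BC17, H4C4 and H4C5, against 11 of all 3135 DoGs (0.351%).

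Both replicates of the conventional preparation listed 342 genes in the DoG-inducing condition, and both replicates of the SERIPH 1st-step fraction listed 279. Of the 373 genes in either set, 140 (37.5%) were also listed in a control library and were left out. Of the 233 that remained, 30 had no FPKM, and the longest region of each of these 30 was overlapped by a longer region of another gene on the same strand. Among the 203 DoGs, 132 were chosen through both preparations, 51 through the conventional one alone and 20 through the 1st-step fraction alone. The 28 DoGs just inside the rule, listed in exactly 2 aqueous libraries, had a median FPKM of 0.304 over the 4 aqueous libraries of the DoG-inducing condition. The 111 just outside it, listed in an aqueous library but in both replicates of neither preparation and in no control library, had a median of 0.36.

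The set was mostly retained in hiAGPC and the 2nd step of the DoG-inducing condition, whose lists the rule did not use. Both hiAGPC and both 2nd-step libraries listed 190 of the 203 (93.6%), against 1287 of all 3139 DoGs. The rule already required listing in both replicates of an aqueous preparation, so this difference is given as a description. Of the 203, 126 were listed in all 8 libraries of that condition. DUSP1, BNIP3, NDUFAF3 and CPHXL were listed in no hiAGPC and no 2nd-step library. The 9 others, BFAR, DHRS7B, CDC42BPA, RYK, TOP3A, COG8, TMEM242, EPB41L4A-AS1 and USP17L7, were listed in 1 to 3 of those 4 libraries.

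The median FPKM of the 203 DoGs was 0.52 and 0.47 in the conventional libraries of the DoG-inducing condition, 0.48 and 0.51 in the 1st-step fraction, 1.44 and 1.4 in hiAGPC, and 2.01 and 2.02 in the 2nd-step fraction. In the control libraries it was between 0.06 and 0.08. Both aqueous preparations were thus low and alike at the median, and hiAGPC and the 2nd-step fraction were higher, in that order. The absence of a control listing chose these DoGs, so their difference from control is given as a description. Both DoG-inducing libraries lay above both control libraries for 200 of the 203 in the conventional preparation (64.5% of all DoGs), 191 in the 1st-step fraction (58.6%), 200 in hiAGPC (80.4%) and 200 in the 2nd-step fraction (80.8%). In the control libraries, 31 DoGs stayed at or under 0.02 FPKM in all 8, and 14 reached 1 FPKM or more in at least 1 of them. The region over which FPKM was computed contained another gene on the same strand for 13 of those 14, and the part of such genes in the values was not tested. Replicates differed little: the SD of the difference between replicates, on the log2(FPKM + 0.1) scale, was 0.114 in the conventional preparation, 0.234 in the 1st-step fraction, 0.0798 in hiAGPC and 0.128 in the 2nd-step fraction. A difference of at least 1 on that scale was seen for DHX9 alone, at 0.11 and 0.52 FPKM in the 1st-step replicates.

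**Figure D1:**
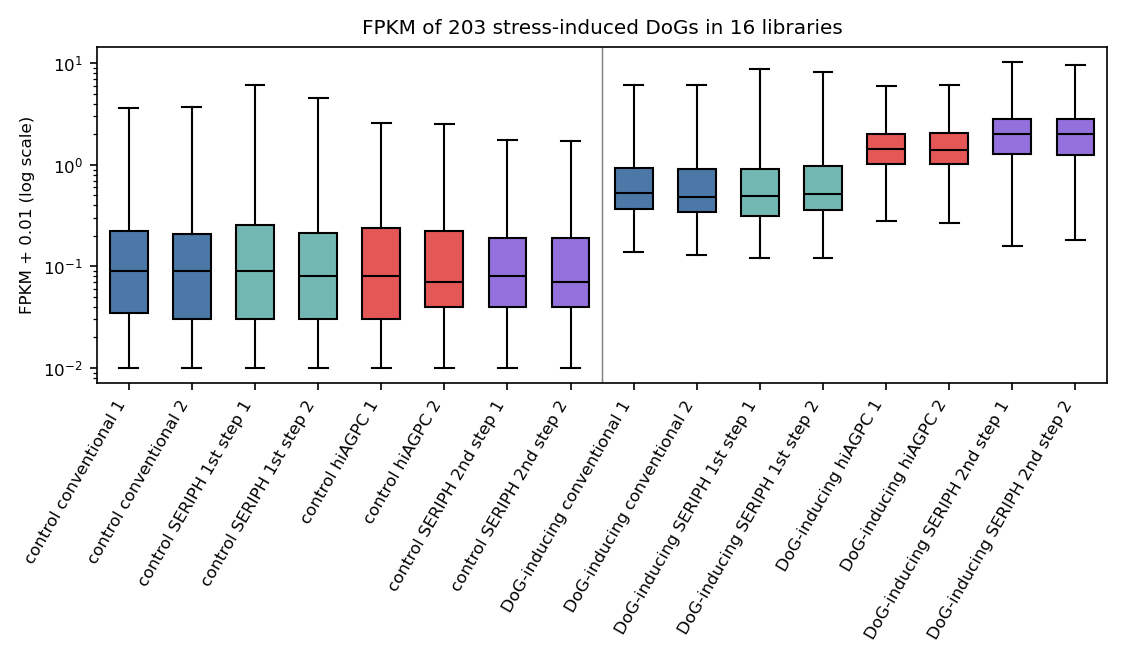
FPKM + 0.01 on a log axis for the 203 DoGs in each of the 16 libraries, where boxes span the quartiles, the line is the median and whiskers reach the lowest and highest DoG. Medians rise from at most 0.08 FPKM in the control libraries to 0.47 to 0.52 in the aqueous and 1.4 to 2.02 in the hiAGPC and 2nd-step libraries under the DoG-inducing condition.

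Of the 6 DoGs with the highest mean FPKM in aqueous RNA, 4 were higher in the 2nd step than in hiAGPC at an adjusted p-value under 0.05, but by less than the fold required for a call. SECISBP2 encodes the protein that binds the selenocysteine insertion element of selenoprotein mRNAs, and its longest DoG region was chr9:89363634-89503633, on the plus strand, within which no other gene lay on that strand. Its FPKM was 2.77 and 2.76 in the conventional libraries, 3.31 and 3.36 in the 1st step, 5.17 and 5 in hiAGPC and 7.63 and 8.61 in the 2nd step, against 0.01 to 0.03 in the 8 control libraries. The 4 preparations did not overlap in the DoG-inducing condition, and no control library came near them. The 2nd-step fraction exceeded hiAGPC by 0.66 on the log2 scale (SE 0.077, limma adjusted p = 1.59e-05). For SURF2, of the surfeit gene cluster, FPKM was 2.8 and 3.04, 3.84 and 3.87, 4.83 and 4.53, and 8.4 and 8.25 in the same order of preparations, with 0.2 to 0.72 in control. ENSG00000170846, a protein-coding gene without a symbol in the annotation used, gave 3.04 and 3.09, 4.02 and 3.75, 5.99 and 5.84, and 10.25 and 9.72, with 0.11 to 0.21 in control. Both DoGs followed the order of SECISBP2, from conventional RNA through the 1st step and hiAGPC to the 2nd step. The SURF2 and ENSG00000170846 DoGs were higher in the 2nd step than in hiAGPC by 0.82 (SE 0.0766, limma adjusted p = 4e-06) and 0.75 (SE 0.113, limma adjusted p = 0.000106) on the log2 scale.

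PKD1, H4C4 and TOP3A did not follow that order. For PKD1, which encodes polycystin-1, FPKM was 3.19 and 3.31 in conventional RNA, 4.72 and 4.57 in the 1st step, 3.73 and 3.27 in hiAGPC and 6.6 and 5.71 in the 2nd step, so that hiAGPC overlapped the conventional libraries. Its control libraries held 0.65 to 1.83. The 2nd step exceeded hiAGPC by 0.80 (SE 0.165, limma adjusted p = 0.001). H4C4, a replication-dependent histone H4 gene, gave 6.15 and 6.12 FPKM in conventional RNA, 4.17 and 3.9 in the 1st step, 5.16 and 5.18 in hiAGPC and 4.39 and 4.48 in the 2nd step. Conventional RNA was thus the highest, and the difference between the 2nd step and hiAGPC was −0.22 (95% interval −0.435 to 0.00101, limma adjusted p = 0.0676). The H4C4 region spans the linker histone gene H1-2 and H2BC4 among others, and its control values ran from 0.03 in both 2nd-step libraries to 4.1 in a 1st-step library, so that its 1st-step libraries overlapped their controls of 4.1 and 3.12. For TOP3A, the gene of topoisomerase IIIα, FPKM was 5.46 and 5.85 in conventional RNA, 8.7 and 8.16 in the 1st step, 2.32 and 2.18 in hiAGPC and 1.03 and 0.79 in the 2nd step. The aqueous libraries were the highest and the 2nd-step libraries the lowest, without overlap. TOP3A was listed in both 1st-step libraries and in no conventional one. Its control values ran from 1.37 to 6.11 over the 4 preparations. Within hiAGPC and within the 2nd step, the controls were above the libraries of the DoG-inducing condition. In hiAGPC the log2 fold change against control was only −0.17 (95% interval −0.451 to 0.103). The 30 kb region of TOP3A reached FLII on the same strand.

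**Figure D2:**
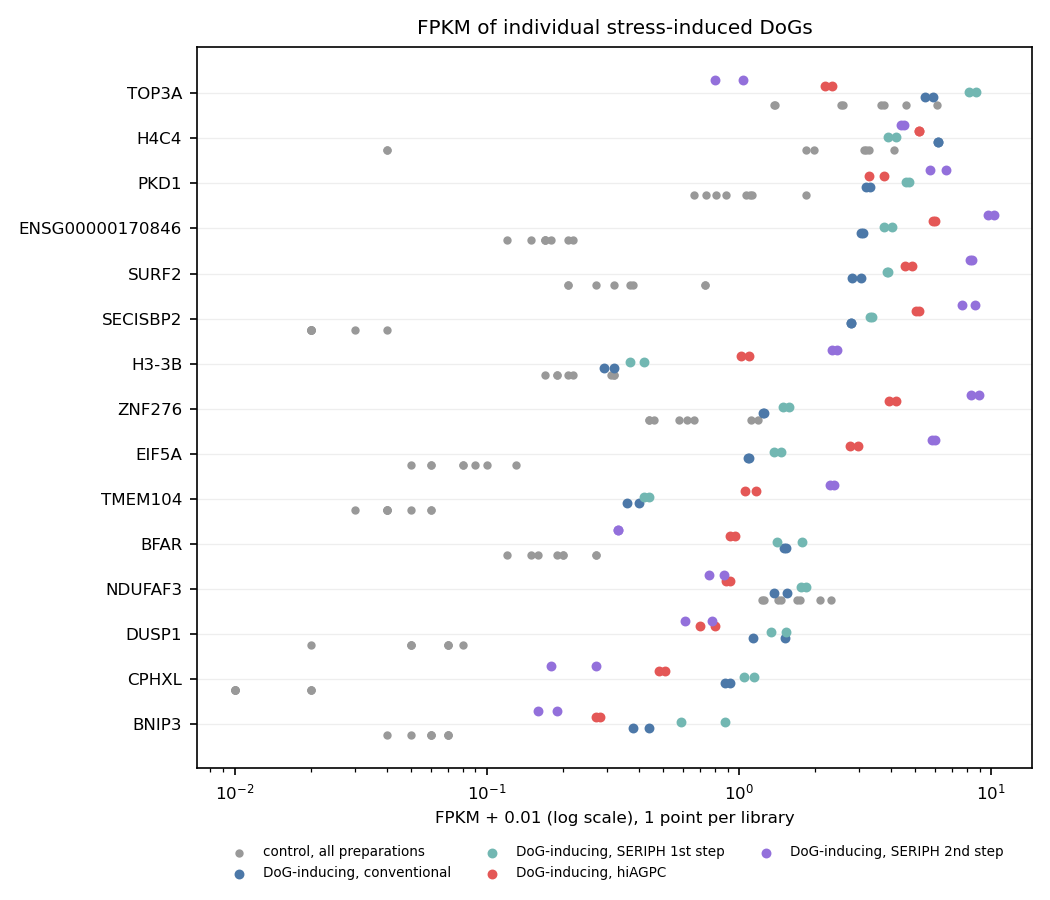
FPKM + 0.01 on a log axis for 15 DoGs, 1 point per library, with the 8 control libraries in grey and the 8 libraries of the DoG-inducing condition coloured by preparation. SECISBP2 lies at 0.03 FPKM or less in control and at 2.76 or more in the DoG-inducing condition, whereas for TOP3A, NDUFAF3, H4C4 and H3-3B the libraries of the DoG-inducing condition overlap the control libraries pooled over all preparations.

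In the aqueous libraries these DoGs were short. The median region length was 15 kb in each of the 4 aqueous libraries, 55 and 50 kb in hiAGPC and 75 and 80 kb in the 2nd-step fraction. DoG regions had to be at least 10 kb long, and between 33.5% and 40.9% of those listed in an aqueous library were exactly 10 kb, against 6.15% to 9.18% in hiAGPC and the 2nd step. Among the 126 DoGs listed in all 8 libraries, the mean 2nd-step length was a median of 4.5 times the mean aqueous length. That ratio was under 1.5 for 17 of them and at least 10 for 27. It was the largest, 69.2, for ZIC2, a zinc finger transcription factor gene, whose region was 10 kb in all 4 aqueous libraries, 669 and 670 kb in hiAGPC and 670 and 714 kb in the 2nd step. The longest regions in aqueous RNA were those of RPS12, AMPD3, CYCS and CREB5. The region of RPS12, a ribosomal protein gene, was 205 kb in both conventional libraries, 155 and 205 kb in the 1st step, 205 kb in both hiAGPC libraries and 205 and 915 kb in the 2nd step. The settings of the DoG caller had been tuned on RPS12 by the authors, so its length is not independent of them. For CYCS, the gene of cytochrome c, the lengths were 100 and 95 kb in both aqueous preparations, 697 and 382 kb in hiAGPC and 712 and 755 kb in the 2nd step. CREB5, a transcription factor gene, ran from 25 to 115 kb in aqueous RNA and from 457 to 550 kb in the other 4 libraries. AMPD3, which encodes an AMP deaminase, was listed at 239 and 115 kb in conventional RNA, in 1 of the 1st-step libraries at 95 kb, and at 275 kb in all 4 others.

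The lengths in hiAGPC and the 2nd step were not used by the rule and were compared for the 190 DoGs listed in all 4 of those libraries. The library medians were 55 and 55 kb in hiAGPC and 75 and 86.6 kb in the 2nd step, a difference of 25.8 kb. A two-sided exact permutation test of the 4 medians gave p = 0.333, the smallest value that 2 against 2 libraries allow. Region by region, the 2nd-step mean was longer for 134, equal for 38 and shorter for 18 of the 190, with a median ratio of 1.2. In both 2nd-step libraries the region was longer than in either hiAGPC library for 79 of the 190 (41.6%), against 45.9% of the 1287 DoGs listed in all 4 libraries. For the 867 other stress-induced DoGs in all 4 libraries the median ratio was 1.44. The difference of the medians was 7.5 kb over the DoGs that reached no further gene on their strand.

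**Figure D3:**
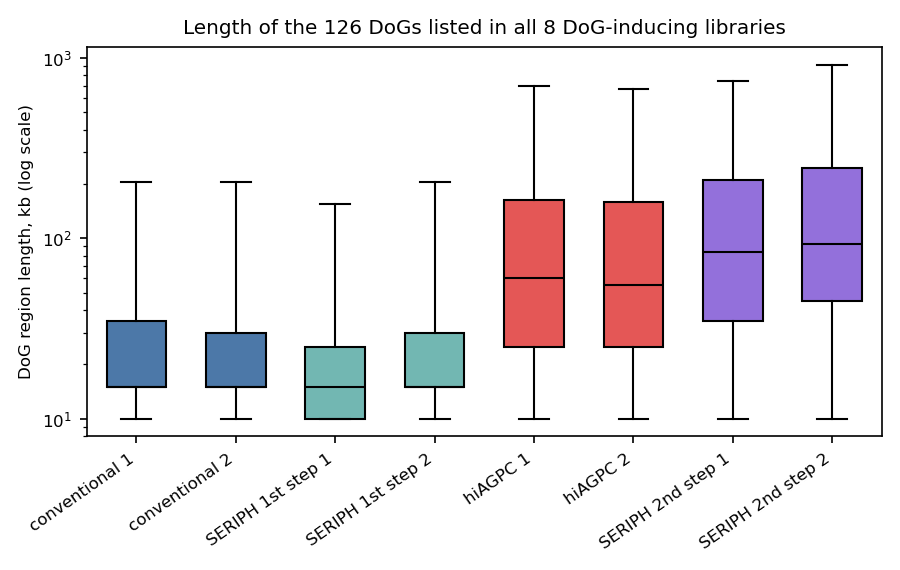
DoG region length in kb on a log axis for the 126 DoGs listed in all 8 libraries of the DoG-inducing condition, with boxes over the quartiles, a line at the median and whiskers to the shortest and longest region. The medians are 15 kb in the 4 aqueous libraries, 60 and 55 kb in hiAGPC and 83.8 and 92.5 kb in the 2nd step.

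The 2nd step and hiAGPC were then compared by FPKM under the DoG-inducing condition. The rule did not require these libraries, but the comparison is not independent of it. The authors describe hiAGPC RNA as a mixed pool that still holds readily extractable RNA, and the rule chose DoGs seen in such RNA. Differences of the set from other DoGs are therefore given as a description. Both 2nd-step libraries were above both hiAGPC libraries for 167 of the 203 DoGs (79.3% of all DoGs) and below them for 19 (9.36%, against 7.74% of all DoGs). The median log2 fold change was 0.43, with quartiles of 0.20 and 0.69, against 0.52 over all 3139 DoGs and 0.63 over the other stress-induced DoGs. An adjusted p-value under 0.05 was reached by 142 that were higher (70.0%, against 68.7% of all DoGs) and by 12 that were lower (5.91%, against 4.75%). With a log2 fold change of at least 1 required as well, 4 were called higher (1.97%, against 6.91% of all DoGs) and 2 were called lower (0.985%, against 1.75%). Among the other stress-induced DoGs, 9.24% were called higher and 0.253% lower. Centring each library on its median over all DoGs, which lowered every log2 fold change of this comparison by 0.48, left 0 called higher and 6 called lower. The share of all DoGs called after centring is not given, so these counts are not read as a trait of the set.

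The 4 DoGs called higher were those of H3-3B, ZNF276, EIF5A and TMEM104. H3-3B encodes the replication-independent histone H3.3, and its DoG was at 1.08 and 1.01 FPKM in hiAGPC and 2.43 and 2.33 in the 2nd step, a log2 fold change of 1.12 (SE 0.141, limma adjusted p = 2.78e-05). Its region was 10 kb in each aqueous library that listed it, 108 and 138 kb in hiAGPC and 258 and 245 kb in the 2nd step, where it reached RECQL5 and GALK1. ZNF276, a zinc finger gene, was at 4.18 and 3.91 FPKM in hiAGPC and 8.94 and 8.31 in the 2nd step (log2 fold change 1.07, SE 0.118, limma adjusted p = 1.07e-05). EIF5A, which encodes a translation factor that carries hypusine, was at 2.95 and 2.74 against 5.95 and 5.81 (1.02, SE 0.107, limma adjusted p = 7.7e-06). TMEM104, a gene of a transmembrane protein, was at 1.16 and 1.05 against 2.36 and 2.29 (1.01, SE 0.0897, limma adjusted p = 3.27e-06). In each of these 4 the replicates were closer to each other than to the other preparation. The regions of all 4 reached a neighbouring gene.

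BFAR and TOP3A were called lower. BFAR encodes a regulator of apoptosis, and its DoG was 10 kb long in the 6 libraries that listed it, the 4 aqueous and both hiAGPC ones. FPKM of the BFAR DoG was 1.53 and 1.5 in conventional RNA, 1.41 and 1.76 in the 1st step, 0.91 and 0.95 in hiAGPC and 0.32 in both 2nd-step libraries, against 0.11 to 0.26 in control. The 2nd step was lower than hiAGPC by a log2 fold change of −1.29 (SE 0.125, limma adjusted p = 4.93e-06), and the aqueous libraries were the highest. TOP3A had a log2 fold change of −1.23 (SE 0.127, limma adjusted p = 7.16e-06).

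**Figure D4:**
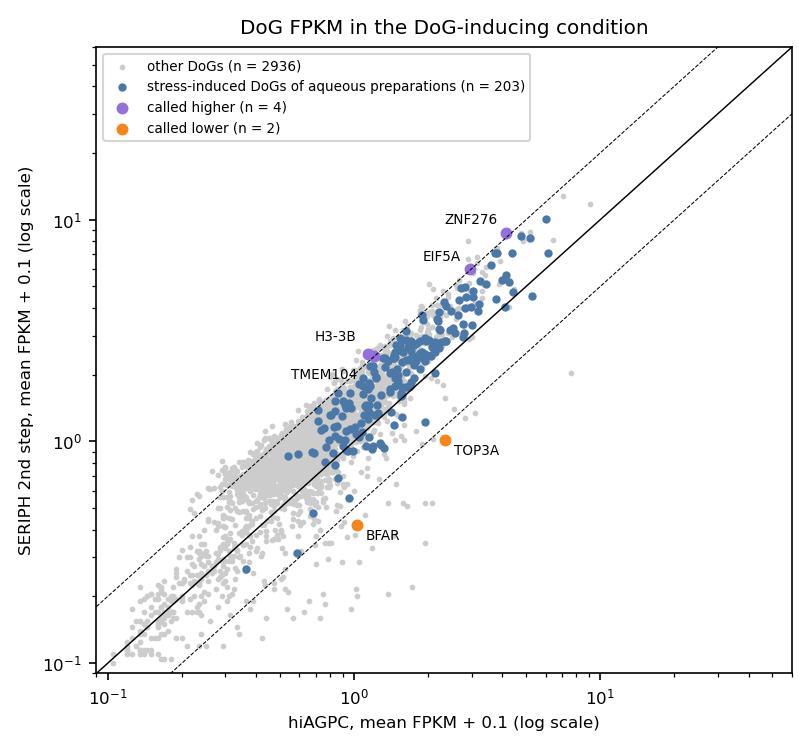
Mean FPKM + 0.1 over 2 libraries in hiAGPC (horizontal) and in the 2nd step (vertical), both on log axes, for the 203 DoGs and the 2936 others, with the line of equality and dashed lines at a log2 fold change of 1 and −1. Most of the 203 lie between equality and the upper dashed line, and the 6 called DoGs are named.

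The 4 DoGs listed in aqueous RNA and in no hiAGPC or 2nd-step library still had FPKM in those libraries, at lower values. DUSP1, an immediate early gene for a MAP kinase phosphatase, was at 1.13 and 1.51 FPKM in conventional RNA, 1.33 and 1.53 in the 1st step, 0.79 and 0.69 in hiAGPC and 0.77 and 0.6 in the 2nd step, against 0.01 to 0.07 in control. CPHXL, a homeobox gene, was at 0.87 and 0.91, 1.04 and 1.14, 0.47 and 0.5, and 0.26 and 0.17, with at most 0.01 in control. BNIP3, the gene of a mitophagy receptor, was at 0.43 and 0.37, 0.87 and 0.58, 0.27 and 0.26, and 0.15 and 0.18, with 0.03 to 0.06 in control. All 3 were higher in every aqueous library than in any hiAGPC or 2nd-step library, and every library of the DoG-inducing condition was above control. Listing rests on read coverage in these same libraries and chose these DoGs, so both orders are given as a description. Between the 2nd step and hiAGPC, CPHXL was lower by −0.91 (SE 0.113, limma adjusted p = 2.48e-05) and BNIP3 by −0.46 (SE 0.144, limma adjusted p = 0.0121) on the log2 scale, whereas DUSP1 gave −0.10 (95% interval −0.459 to 0.252, limma adjusted p = 0.576). NDUFAF3, which encodes an assembly factor of respiratory complex I, went against the label of the set. Its FPKM was 1.37 to 1.84 in the aqueous libraries of the DoG-inducing condition and 1.69 to 2.3 in the aqueous control libraries, and within each of the 4 preparations both DoG-inducing libraries were below both controls. Its difference between the 2nd step and hiAGPC was −0.14 (95% interval −0.323 to 0.0444, limma adjusted p = 0.152).

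The comparisons of hiAGPC with conventional RNA and of the 2nd step with the 1st step each share 2 libraries with the rule, so their counts are descriptions. In hiAGPC 124 of the 203 were called higher than in conventional RNA (61.1%, against 68.8% of all DoGs) and 1, TOP3A, was called lower (0.493%, against 0.478%). In the 2nd step 152 were called higher than in the 1st step (74.9%, against 79.3%) and 6 lower (2.96%, against 2.96%). The 6 were BFAR, BNIP3, TOP3A, NDUFAF3, USP17L7 and CPHXL. With each library centred on its median the calls were 9 higher and 35 lower in the former comparison, and 17 higher and 49 lower in the latter. These centred counts have no share over all DoGs beside them and are not read as a trait of the set. The median log2 fold changes of the 203 were 1.28 and 1.74, against 1.40 and 1.99 over all DoGs. Both hiAGPC libraries were below both conventional ones for 16 DoGs (7.88%, against 6.02% of all DoGs), and both 2nd-step libraries were below both 1st-step ones for 16 (7.88%, against 6.34%). In both groups were 14 DoGs, a number without its share over all DoGs, so it is not read as a trait of the set. The longest region was 10 kb for 9 of those 14, whereas 18 of all 203 had a longest region of 10 kb. The 14 included GATA2, a transcription factor gene, at 1.5 and 1.77 FPKM in conventional RNA, 1.96 and 2.24 in the 1st step, 1.49 and 1.4 in hiAGPC and 1.43 and 1.67 in the 2nd step. GATA2 was chosen after its values were seen, as were ZIC2 and DHX9. USP17L7 belongs to a family of near-identical copies, and as the authors kept uniquely mapped reads its values are uncertain, as are those of the histone genes.

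The aqueous preparations themselves were close. In the 1st-step fraction against conventional RNA, the median log2 fold change of the 203 was 0.00, with a range from −1.18 to 0.78. The limma fit called 0 of them, and 0 of all 3139 DoGs, at a log2 fold change of at least 1. At an adjusted p-value alone 12 were higher (5.91%, against 3.09% of all DoGs) and 8 lower (3.94%, against 3.22%). The direction of these small differences moved with base composition. Over the 203 DoGs, the GC content of the longest region correlated with the log2 fold change of the 1st step against conventional RNA (Pearson r = 0.774, Spearman rho = 0.817), a correlation across DoGs that share the same 4 libraries. The median was 0.29 for the 50 DoGs with a GC content of at least 50% and −0.28 for the 28 under 40%. In the 2nd step against hiAGPC the correlation with GC was also positive (Pearson r = 0.441, Spearman rho = 0.59), with medians of 0.72 and 0.20 in the same groups. Over all DoGs with a region the Spearman rho was 0.611 in the former comparison and 0.689 in the latter. The part of GC content in the calls was not tested.

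By function, 61 of the 203 belonged to at least 1 of 13 gene lists. Cytosolic ribosomal proteins and translation factors were the most numerous, with 17 of the 53 DoGs of that list (32.1%, where 6.47% of all DoGs were in the set). Between the 2nd step and hiAGPC, 12 of the 17 were higher at an adjusted p-value under 0.05 (68.7% of all DoGs), 0 were lower (4.75% of all DoGs) and none of the 17 reached the fold required for a call, and the median log2 fold change was 0.37, against 0.49 over the 53. The list does not hold the translation factor genes EIF5A, which was called higher, and EIF4E, nor EIF4A3, all in the set. RPL21, RACK1 and RPL32 had the highest aqueous FPKM of this list. RPL21 was at 1.41 and 1.35 FPKM in conventional RNA, 1.37 and 1.32 in the 1st step, 1.64 and 1.52 in hiAGPC and 1.75 and 1.63 in the 2nd step, so that hiAGPC and the 2nd step overlapped. RACK1, a ribosome-bound scaffold, was at 1.67 and 1.75 in hiAGPC and 2.95 and 2.41 in the 2nd step, and RPL32 was at 1.84 and 1.83 and at 2.86 and 2.81. Of the 5 genes of the snoRNA host list in the set, 3 were higher and 1 lower by adjusted p-value (68.7% and 4.75% of all DoGs), and their median log2 fold change was 0.29, against 0.73 over the 11 DoGs of the list. GAS5, a spliced snoRNA host, was at 0.42 to 0.59 FPKM in aqueous RNA, 2.67 and 2.69 in hiAGPC and 3.26 and 3.34 in the 2nd step, and its region grew from at most 15 kb in aqueous RNA to between 371 and 372 kb in the other 4 libraries. EPB41L4A-AS1 stayed between 0.34 and 0.78 FPKM in all 8 libraries.

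Histone genes gave 10 of the 24 DoGs of their list (41.7%). They had the highest median aqueous FPKM of the lists with more than 1 gene in the set, 1.22, and a median log2 fold change between the 2nd step and hiAGPC of 0.21, against 0.19 over the 24. By adjusted p-value, 3 of the 10 were higher and 0 lower, against 68.7% and 4.75% of all DoGs. The list does not hold H3-3B, which is also in the set and was called higher, with a log2 fold change of 1.12. H2BC8 was at 1.94 to 2.26 FPKM in aqueous RNA, 3.69 and 3.67 in hiAGPC and 4.42 and 4.12 in the 2nd step, with at most 0.08 in control. H4C5 was at 1.47 to 2.03, 4.06 and 3.93, and 3.94 and 3.97, with at most 0.19 in control, and its region was 10 kb in all 8 libraries. Both were well above their controls in every library, and H4C5 overlapped between hiAGPC and the 2nd step.

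Splicing factors and regulators gave 8 of 33 DoGs (24.2%), and 7 of the 8 were higher in the 2nd step by adjusted p-value (68.7% of all DoGs), with a median log2 fold change of 0.61, against 0.66 over the 33. The list does not hold all splicing genes of the set. SNRPB, SFPQ, PNN and SMNDC1 are among those left out, with lower log2 fold changes of 0.55, 0.42, 0.34 and 0.13. DDX39B, an RNA helicase of splicing and mRNA export, was at 1.06 to 1.19 FPKM in aqueous RNA, 4.3 and 4.28 in hiAGPC and 7.02 and 6.91 in the 2nd step. HNRNPDL was at 1.07 to 1.38, 4.21 and 4.42, and 4.76 and 4.43. SRSF5 was at 0.76 to 0.88, 2.96 and 2.94, and 4.21 and 4.55, over a region that lengthened from 55 to 60 kb in aqueous RNA to 420 and 425 kb. DDX39B and SRSF5 were without overlap between the 2nd step and hiAGPC, and HNRNPDL was separated by 0.01 FPKM.

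Immediate early genes gave 6 of 17 DoGs (35.3%), namely DUSP1, DUSP5, EGR1, EGR3, ID4 and IER5, of which 4 were higher in the 2nd step by adjusted p-value and 0 lower (68.7% and 4.75% of all DoGs). Their median log2 fold change was 0.48, against 0.34 over the 17. EGR3, a zinc finger transcription factor gene, was at 0.32 to 0.43 FPKM in aqueous RNA, 1.39 and 1.33 in hiAGPC and 2.25 and 2.28 in the 2nd step. DUSP5, another MAP kinase phosphatase gene, was at 0.56 to 0.67, 1.36 and 1.38, and 1.66 and 1.68. The integrated stress and unfolded protein response list gave 2 of 9 DoGs (22.2%). ATF4, the central transcription factor of the integrated stress response, was at 0.45 to 0.7, 0.73 and 0.74, and 1.26 and 1.29 FPKM. SESN2 was at 0.41 to 0.45, 1.5 and 1.54, and 2.35 and 2.11. The heat shock list gave 1 of 9 DoGs (11.1%), that of the co-chaperone gene DNAJA1. It was lower in the 2nd step, at 0.82 and 0.85 FPKM against 1.15 and 1.3 in hiAGPC. DNAJA1 was lower by adjusted p-value but was not called (log2 fold change −0.50), and the median over the 9 DoGs of the list was 0.26. The lists of osmotic response genes, p53 targets, and cytokine and NF-kB targets had 5, 7 and 3 DoGs with FPKM, and 0 of them were in the set.

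ZNF genes gave 4 of 71 DoGs (5.63%), and antisense and divergent lncRNAs 7 of 155 (4.52%), both close to the 6.47% over all DoGs. ZNF703, a transcriptional regulator gene, was at 0.74 to 0.83 FPKM in aqueous RNA, 2.74 and 2.76 in hiAGPC and 4.36 and 4.41 in the 2nd step, and ZNF92 at 0.21 to 0.48, 0.88 and 1.01, and 1.01 and 0.89. UBE2D3-AS1 was at 0.72 to 0.84 FPKM in aqueous RNA, 1.01 and 1.02 in hiAGPC and 0.91 and 0.8 in the 2nd step, with a 10 kb region in all 8, whereas PTOV1-AS1 was at 1.09 and 1.04 in hiAGPC and 2.11 and 2.06 in the 2nd step. CSTF3, a subunit of the cleavage stimulation factor, and INTS6, of the Integrator complex, were the 2 genes in the set from the list of 3′ end processing and termination, out of its 10 DoGs. INTS7, another Integrator subunit gene, and PPP1R10, which encodes a phosphatase subunit with a role in termination, are in the set but not on that list. CSTF3 was at 0.56 to 0.64 FPKM in aqueous RNA, 1.09 and 1.01 in hiAGPC and 1.35 and 1.38 in the 2nd step. INTS6 was at 0.5 to 0.57, 2.4 and 2.37, and 3.71 and 3.82.

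**Figure D5:**
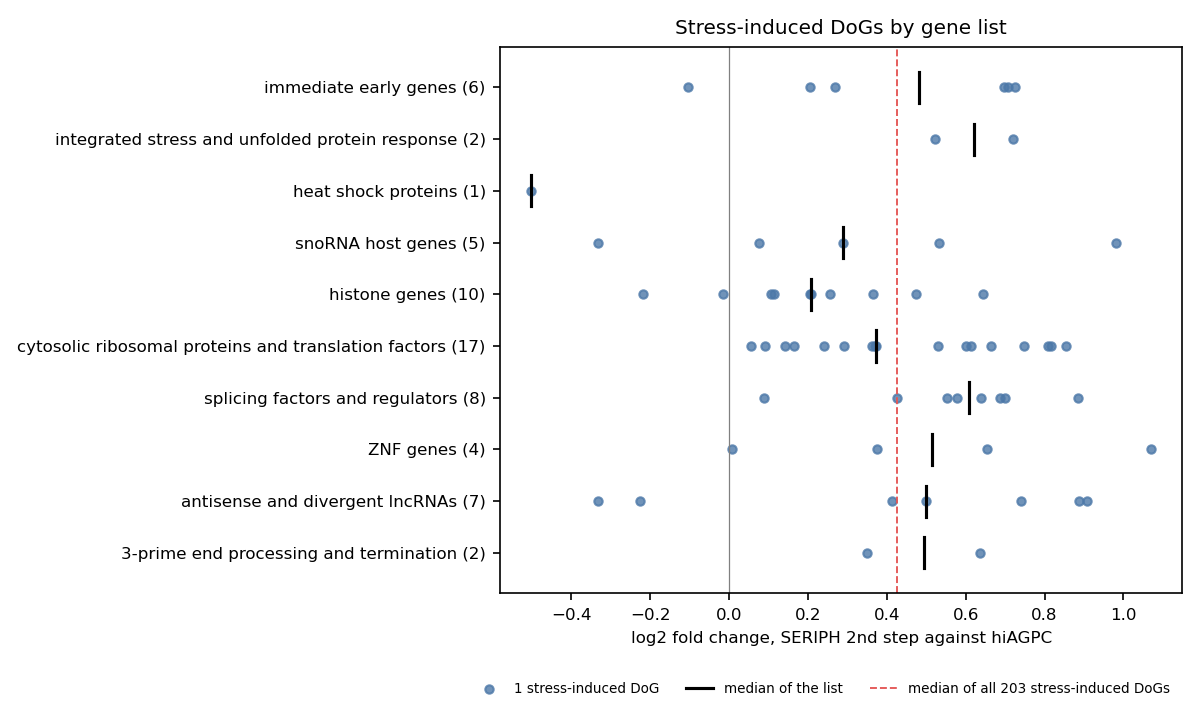
Log2 fold change of FPKM in the 2nd step against hiAGPC under the DoG-inducing condition for each DoG of the set in 10 gene lists, 1 point per DoG, with the number per list in parentheses, a bar at the list's median and a dashed line at 0.43, the median of all 203. DNAJA1 lies at −0.50, and the medians of the lists with more than 1 DoG run from 0.21 for histone genes to 0.62 for the integrated stress and unfolded protein response.

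The genes themselves were short. Their median length was 16.1 kb, against 29.6 kb for the other stress-induced DoGs and 31.9 kb over all DoGs, and 12 (5.91%) had a single exon, against 2.55% of all. Protein-coding genes made up 192 of the 203 and lncRNA genes 11 (5.42%, against 8.23% of all). Chromosome 6 carried 24 of the 203, a count given without its share over all DoGs. The longest listed region, over all preparations, reached 100 kb or more for 91 of the 203 (44.8%), against 23.5% of the other stress-induced and 19.4% of all DoGs. It reached another gene on the same strand for 142 (70.0%), against 45.8% and 41.4%, whereas the regions listed in aqueous RNA did so for 46 (22.7%). The regions of the 203 did not overlap each other on the same strand. The 27 DoGs with a longest region under 20 kb had a median log2 fold change of 0.12 in hiAGPC against conventional RNA, the 85 from 20 to under 100 kb had 0.93 and the 91 of 100 kb or more had 1.80. Since FPKM was computed over the longest region for 193 of the 203, and this region was longer than in any aqueous library for 174 of them, length and fold change are not independent measures here.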

How the data were processed

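RNA from HEK293 cells in 16 libraries was analysed from the deposited region lists and FPKM values. The authors trimmed reads with fastp 0.25.0, removed ribosomal reads with Bowtie2 2.5.4, kept reads that STAR 2.7.11b mapped uniquely to GRCh38, and listed DoGs per library with ARTDeco (minimum 10000 bp, windows of 5000 bp, coverage of at least 0.5). The FPKM that the authors deposited was scaled to region length and library, is rounded to 0.01 and holds 1 region per gene. Whole reads cannot be recovered from it, depth per library is unknown, and no counting error is given.

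log2(FPKM + 0.1), a scale that understates changes of low values, was fitted for all 3139 DoGs and 8 groups with limma 3.58.1 (R 4.3.3, intensity trend), with Benjamini-Hochberg adjustment. Calls required an adjusted p under 0.05 and a log2 fold change of 1 or more in size. On simulated data for the SERIPH 2nd step against hiAGPC, 200 of 200 changed DoGs were recovered and 0 of 2939 others called. Recovery at a log2 fold change just past 1, where the DoGs called higher in this comparison lay, was not tested. Gene positions came from GENCODE v44, and sequences from GRCh38. All sample columns were used (0 left over).

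The DoGs and gene lists were chosen with earlier results of these data known. Named are the 6 with the highest mean aqueous FPKM, up to 5 called in each direction between the 2nd step and hiAGPC, the 4 with the longest mean aqueous region, the 4 listed in no hiAGPC or 2nd-step library, and up to 3 per gene list by aqueous FPKM. Alternatives were a pseudocount of 0.01 or 1, a filter at a mean FPKM of 0.1, centred libraries, a block for the replicate number, a fit of only the 4 libraries compared, no trend, 1 replicate left out, adjusted p alone, stricter or looser listing, a minimum of 20 kb, and DoGs reaching no other gene.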

Additional observations from a re-analysis of the deposited data

Results flagged for a closer look

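For 3 DoGs, the libraries of the DoG-inducing condition all moved one way against control in some preparations and the other way in others. The difference between preparations was not tested. Some of these changes were small. The 95% interval held both signs for TOP3A in hiAGPC (−0.451 to 0.103), TMEM242 in hiAGPC (−0.722 to 0.146) and TSR1 in conventional RNA (−0.262 to 0.032). The TOP3A DoG had log2 fold changes against control of 0.60 in conventional RNA and 0.66 in the SERIPH 1st step, but −0.17 in hiAGPC and −0.56 in the 2nd step. For TMEM242 the log2 fold changes were 0.41 in conventional RNA, −0.29 in hiAGPC and −1.35 in the 2nd step. Its 1st-step libraries overlapped their controls, at 0.71 and 0.79 FPKM against 0.85 and 0.62. TSR1, a gene of ribosome maturation, went the other way, with −0.12 in conventional RNA, 0.06 in the 1st step (95% interval −0.0883 to 0.206), 0.57 in hiAGPC and 0.42 in the 2nd step. Its values there were 1.39 and 1.33 FPKM against 0.88 in both controls of hiAGPC, and 2.36 in both libraries against 1.75 and 1.72 in the 2nd step.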

How the results depend on the processing

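The calls between the SERIPH 2nd step and hiAGPC (4 higher, 2 lower) depended on the threshold: there were 7 higher with a pseudocount of 0.01, 0 higher and 0 lower with 1, 0 higher and 6 lower with centred libraries, and 142 higher and 12 lower by adjusted p alone. Listing in both replicates of both aqueous preparations left 1 lower, and regions reaching no other gene left 0 higher and 1 lower. With 1 replicate left out, where the lone library was assumed to vary like the other groups, there were 2 to 6 higher and 2 to 3 lower, and EIF5A and TMEM104 fell under the fold without replicate 2 (0.99 and 0.97). In hiAGPC against conventional RNA (124 higher, 1 lower) a pseudocount of 1 gave 41 higher, centring 9 higher and 35 lower, and a replicate left out 122 to 126 higher and 1 to 2 lower. In the 2nd against the 1st step (152 higher, 6 lower) a pseudocount of 1 gave 87 higher and 1 lower, centring 17 and 49, and a replicate left out 149 to 156 higher and 7 to 8 lower. Of 135 alternative values of the log2 fold changes of 15 named DoGs, 120 kept their direction and side of the threshold, 12 fell below it, 3 passed it (all CPHXL) and 0 reversed. The set held 132 DoGs with both aqueous preparations required, 314 with any aqueous library, 71 with at least 20 kb, and 260 to 279 with a single replicate. Another gene was reached by 46 of the aqueous regions instead of 142. The length difference of 25.8 kb was 20 to 25 kb with a replicate left out and 7.5 kb without regions that reach another gene. Conventional and hiAGPC RNA came from the same samples, and the SERIPH 1st and 2nd steps from the same lysate. Same-numbered replicates nevertheless did not deviate together (correlations of −0.104 to 0.143 over 28 pairs of groups). A replicate block left 4 higher and 2 lower and changed none of the other counts of calls. No share of all DoGs is given for the calls with centred libraries or another pseudocount. The rounding to 0.01 FPKM limits values near 0, and the causes of these changes were not tested.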

Other observations

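Some DoGs of the set were nearly absent from control libraries, and a few of these, chosen after their values were seen, are given here. DUXB, a homeobox gene next to CPHXL on chromosome 16 and on the same strand, had 0 FPKM in all 8 control libraries, and 1.09 and 1.04 in conventional RNA, 0.81 and 0.83 in the SERIPH 1st step, 1.05 and 1.12 in hiAGPC and 0.95 and 0.7 in the 2nd step of the DoG-inducing condition. Its level was thus similar in aqueous and hiAGPC RNA, while that of CPHXL, at 0.87 to 1.14 FPKM in aqueous RNA, was lower in hiAGPC and lowest in the 2nd step. PRR20G was at 0 to 0.01 FPKM in control and at 0.36 to 0.41 in aqueous RNA, 0.69 and 0.7 in hiAGPC and 0.9 and 0.93 in the 2nd step. KCNQ1OT1, a lncRNA of an imprinted domain, was at 0 to 0.01 FPKM in control and at 0.56 to 0.77, 1.16 and 1.05, and 1.96 in both 2nd-step libraries, in the same order.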
